A study of Rattus norvegicus with 9 samples.

Results

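Genes of the cell cycle and of DNA replication were described in cardiac RNA of Sprague Dawley rats with and without heart failure (HF). Members were chosen by symbol alone: cyclins, cyclin-dependent kinases (CDKs) and their inhibitors, Cdc and Cdca genes, Mcm and Gins helicase subunits, replicative polymerase subunits, Pcna, pocket proteins, checkpoint kinases, genes named after p53 (Trp53), polo-like kinases, Btg genes, centromere genes and numbered kinesins. In all, 43 of the 5760 genes listed in either of the 2 deposited tables were members. Of these, 28 stood among 4288 genes in the table for the Cal and model groups, 23 among 2458 genes in that for the model and sham groups, and 8 among the 986 genes shared by both. The symbols take in relatives with other duties, such as kinesins that carry cargo and Cdkn2aipnl, which is named after a partner of a CDK inhibitor. For 9 of the 25 name patterns (E2f, Rb1, Aurk, Bub, Mki67, Top2a, Rrm, Tk1 and Orc) no gene is listed, so genes widely used to mark dividing cells were not analysed here.

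The sham group (labelled Control) was operated on without ligation and then received distilled water. Rats of the model group had the left anterior descending coronary artery ligated, which causes an infarct and later HF, and received distilled water. The Cal group had the same ligation and received calycosin (Cal), a plant isoflavone, by mouth at 80 mg/kg per day. Treatment lasted 28 days in the 3 groups, the rats were male, their age is not given in the sources used here, and 3 animals per group were sequenced, drawn at random from larger groups.

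The column headings of the tables conflict, and this touches every direction given here. The Cal and model table also carries a group mean headed Cal, which averages the samples headed Model, and a group mean headed Model, which averages the samples headed Cal. The other table has sample columns headed Cal and Con only, and its group mean headed Model averages the samples headed Cal. Libraries are therefore called Cal-headed, Model-headed and Con-headed after their sample columns, and going by the mean columns the Cal-headed libraries would be the model group. The Cal-headed libraries carried identical reads in both tables for 8 of the 8 shared members, so the 2 comparisons share these libraries. The sample columns hold normalized counts, which are reads per gene divided by 1 size factor per library. Reads on listed genes ranged from 2860826 to 4659882 per library and table, while full depth is unknown. Both tables hold only genes that had passed a test of significance on these same libraries, so passing a test again is a property of the tables and not of the members.

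The mitotic cell cycle is driven by CDKs, which need a cyclin partner and are restrained by inhibitors such as p21 (Cdkn1a), p27 (Cdkn1b) and p57 (Cdkn1c). In G1, cyclin D and cyclin E complexes phosphorylate the retinoblastoma family, which releases E2F transcription factors and turns on S phase genes, among them the Mcm subunits that load on origins and unwind DNA. Adult cardiomyocytes rarely divide, so in an injured heart much of the cycling is known to come from fibroblasts, endothelial cells and leukocytes. In these bulk samples, fewer cells of a type and less RNA per cell cannot be told apart.

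The first comparison asks how hearts of the Cal group and the model group differ. Among the 28 members listed there, 15 were higher and 13 lower in the Cal-headed libraries, and the roles were mixed rather than moving as a block. Called genes, with a limma adjusted p below 0.05 plus a log2 change past 1 in size, comprised 11 members higher in the Cal-headed libraries and 7 lower. Over all listed genes, 28.4% were called higher and 31.6% lower. On normalized counts the groups did not overlap in 28 of 28 members, against 98.2% of all listed genes. For Kif17 this rests on the size factors alone, since Cal-headed libraries 1 and 3 and Model-headed library 1 held 1 read each. The median log2 fold change was 0.62 over the members and -0.52 over all listed genes. By count, 15 of 28 members and 46.0% of all listed genes were higher, so both sets were mixed in direction despite medians of opposite sign. Under median-ratio scaling on the listed genes, which moved the median of all listed genes by 0.30, the members called were 14 higher and 5 lower, so 73.7% of the member calls were higher rather than 61.1%. The same scaling raised the share of higher calls over all listed genes from 47.3% to 61.1%. By the mean columns, each direction in this comparison would be that of the model group relative to the Cal group. With 3 libraries against 3, no single gene can reach a two-sided exact permutation p below 0.1, and the p-values measure the spread between these animals only.

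**Figure D1:**
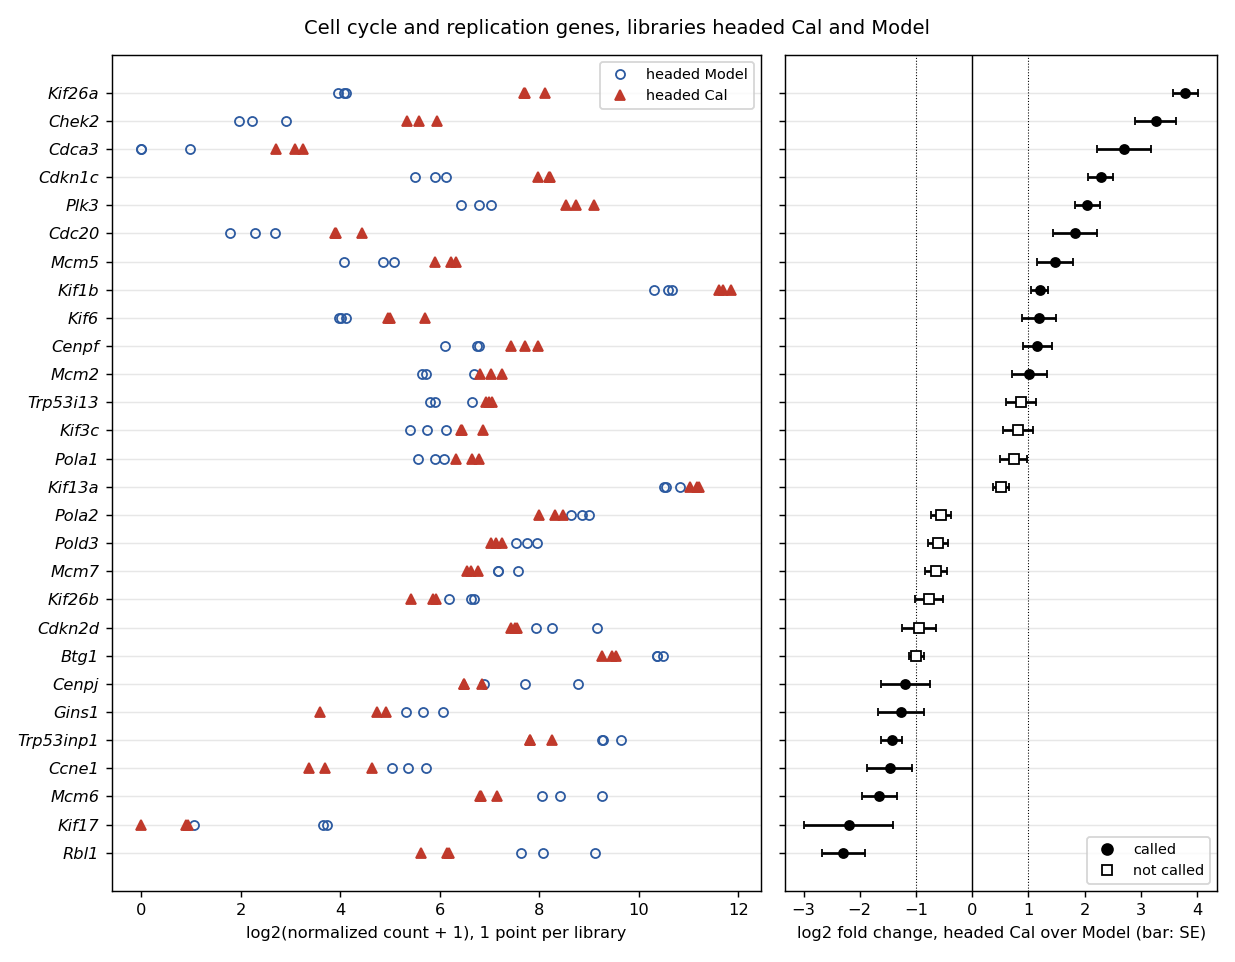
Members listed in the Cal and model table, sorted by log2 fold change. The left panel gives log2(normalized count + 1) for each library (open circles Model-headed, triangles Cal-headed), and the right panel gives the log2 fold change of Cal-headed over Model-headed libraries with its standard error (filled circles called, open squares not called, dotted lines at 1 and -1). On this scale, which shrinks the changes of low genes such as Cdca3 and Kif17, they run from -2.29 for Rbl1 to 3.79 for Kif26a, with 15 members above 0 and 13 below.

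The listed subunits of the replication helicase split in direction. Mcm3 and Mcm4, which belong to the same ring, are listed in neither table. Mcm2, Mcm5, Mcm6 and Mcm7 encode subunits of one ring-shaped helicase, yet Mcm2 and Mcm5 were higher and Mcm6 and Mcm7 lower in the Cal-headed libraries. Mcm5 (ENSMUSG00000005410, mouse chromosome 8, 75109569 to 75128439) had normalized counts of 73.8, 59.1 and 78.6 in the Cal-headed libraries and 28.1, 15.9 and 32.6 in the Model-headed libraries. Every Cal-headed library lay above every Model-headed one, and the log2 fold change was 1.48 ± 0.32 (SE; limma adjusted p = 0.00406). For Mcm2 the values were 150, 112 and 130 against 51.8, 48.8 and 102. Model-headed library 3 came close to the lowest Cal-headed library, and the log2 fold change was 1.02 ± 0.31 (limma adjusted p = 0.0149). This call was at the limit and was lost with edgeR (0.94), DESeq2 (0.95), quantile normalization (0.92) and a pseudocount of 10 (0.92). It was also lost without Cal-headed library 1 (0.91), Model-headed library 1 (0.87) or Model-headed library 2 (0.83).

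Mcm6 (ENSMUSG00000026355, mouse chromosome 1, 128331590 to 128359664) went the other way, with 141, 113 and 111 in the Cal-headed libraries and 265, 612 and 341 in the Model-headed libraries. The groups did not overlap, although Model-headed library 2 was 1.79 times the median of its group. Its log2 fold change was -1.65 ± 0.31 (SE; limma adjusted p = 0.00238) and stayed between -1.91 and -1.31 when each library was left out in turn. Mcm7 had 97.8, 92.9 and 108 against 189, 143 and 143, a narrower gap that was not called (log2 fold change -0.65 ± 0.20). Gins1, a subunit of the GINS complex that joins the Mcm ring to form the active helicase, had 11.1, 29.1 and 25.6 against 38.9, 65.9 and 49.8. It was called lower with a log2 fold change of -1.27 ± 0.41 (SE; limma adjusted p = 0.0173), which became -1.08 with an adjusted p of 0.0589 without Model-headed library 2. The call was also lost without Cal-headed library 1 (-0.86), under median-ratio scaling (-0.98) and with a pseudocount of 10 (-0.97).

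Per kilobase of the deposited gene length, the mean levels of the 4 Mcm subunits were close together in the Cal-headed libraries and far apart in the Model-headed ones. In the former they were 17.7 for Mcm5, 18.8 for Mcm2, 22.5 for Mcm7 and 26.1 for Mcm6, in normalized counts per kilobase. In the latter they were 6.39 for Mcm5, 9.69 for Mcm2, 35.7 for Mcm7 and 87.0 for Mcm6. The order of the subunits was thus the same in both sets of libraries, while the span between the lowest and the highest was wider in the Model-headed libraries. The deposited lengths stand beside mouse Ensembl identifiers although the animals were rats, so levels of different genes compare only roughly.

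The promoters of these helicase genes are shown because the subunits share E2F letters and still differed in direction. Sequences are from RefSeq on the rat assembly GRCr8, 250 bases before to 50 after the annotated start, 5′ to 3′ on the strand of the gene, and 36 of the 43 members had an entry. Capitals mark every match to TTTCCCGC, TTTGGCGC, TTTCGCGC or TTTGCCGC on either strand, and neighbouring matches can overlap because part of the letters read alike on both strands. Rbl1, which encodes the pocket protein p107, is added because it is a regulator of E2F targets and was called lower.
Mcm2 (chr4:122918045-122918344, minus strand): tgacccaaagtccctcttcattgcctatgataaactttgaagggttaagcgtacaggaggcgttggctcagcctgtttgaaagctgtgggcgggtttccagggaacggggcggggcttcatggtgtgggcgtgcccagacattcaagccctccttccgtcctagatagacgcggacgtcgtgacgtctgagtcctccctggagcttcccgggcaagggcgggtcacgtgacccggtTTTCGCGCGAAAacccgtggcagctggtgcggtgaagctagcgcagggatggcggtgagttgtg
Mcm5 (chr19:13488563-13488862, plus strand): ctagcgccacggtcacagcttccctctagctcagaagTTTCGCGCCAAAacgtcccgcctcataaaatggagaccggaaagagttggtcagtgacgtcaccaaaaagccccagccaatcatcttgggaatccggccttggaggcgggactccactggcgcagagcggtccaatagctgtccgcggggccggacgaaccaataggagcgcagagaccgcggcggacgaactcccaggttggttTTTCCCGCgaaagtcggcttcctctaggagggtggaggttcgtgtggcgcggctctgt
Mcm6 (chr13:42404303-42404602, minus strand): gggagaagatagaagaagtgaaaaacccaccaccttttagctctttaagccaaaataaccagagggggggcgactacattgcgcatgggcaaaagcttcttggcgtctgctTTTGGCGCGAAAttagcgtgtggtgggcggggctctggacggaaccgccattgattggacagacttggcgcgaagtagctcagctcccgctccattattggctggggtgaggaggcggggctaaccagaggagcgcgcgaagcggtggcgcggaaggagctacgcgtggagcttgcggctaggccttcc
Mcm7 (chr12:22163129-22163428, minus strand): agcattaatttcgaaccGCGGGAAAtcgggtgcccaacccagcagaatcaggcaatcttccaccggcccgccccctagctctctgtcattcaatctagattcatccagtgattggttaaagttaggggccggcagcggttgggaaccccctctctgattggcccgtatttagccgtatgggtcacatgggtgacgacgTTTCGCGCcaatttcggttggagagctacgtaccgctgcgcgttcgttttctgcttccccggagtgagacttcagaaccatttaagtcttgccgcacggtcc
Gins1 (chr3:160184670-160184969, plus strand): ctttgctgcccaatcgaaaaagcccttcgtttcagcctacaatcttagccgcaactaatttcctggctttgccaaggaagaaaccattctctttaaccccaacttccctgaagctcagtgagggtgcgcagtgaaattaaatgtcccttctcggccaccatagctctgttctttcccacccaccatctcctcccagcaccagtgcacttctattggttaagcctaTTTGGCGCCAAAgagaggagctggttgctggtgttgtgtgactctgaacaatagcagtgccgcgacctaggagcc
Rbl1 (chr3:166289327-166289626, minus strand): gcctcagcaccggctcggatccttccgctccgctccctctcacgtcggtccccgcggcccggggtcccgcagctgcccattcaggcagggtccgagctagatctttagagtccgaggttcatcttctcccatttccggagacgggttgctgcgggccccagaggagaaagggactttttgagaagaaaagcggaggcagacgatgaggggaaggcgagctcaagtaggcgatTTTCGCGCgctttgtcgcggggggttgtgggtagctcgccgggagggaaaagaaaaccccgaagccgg
Matches were found in 10 of the 36 member promoters (27.8%) and in 2.25% of all 27457 rat promoters of the same length. The 10 were Mcm2, Mcm5, Mcm6, Mcm7, Gins1, Rbl1, Cdca7, Pola1, Pold3 and Pole4. Among them, Mcm2, Mcm5 and Pola1 were higher in the Cal-headed libraries, and Mcm6, Mcm7, Gins1, Rbl1 and Pold3 were lower. A match describes letters in this window and does not show that a factor was bound.

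**Figure D2:**
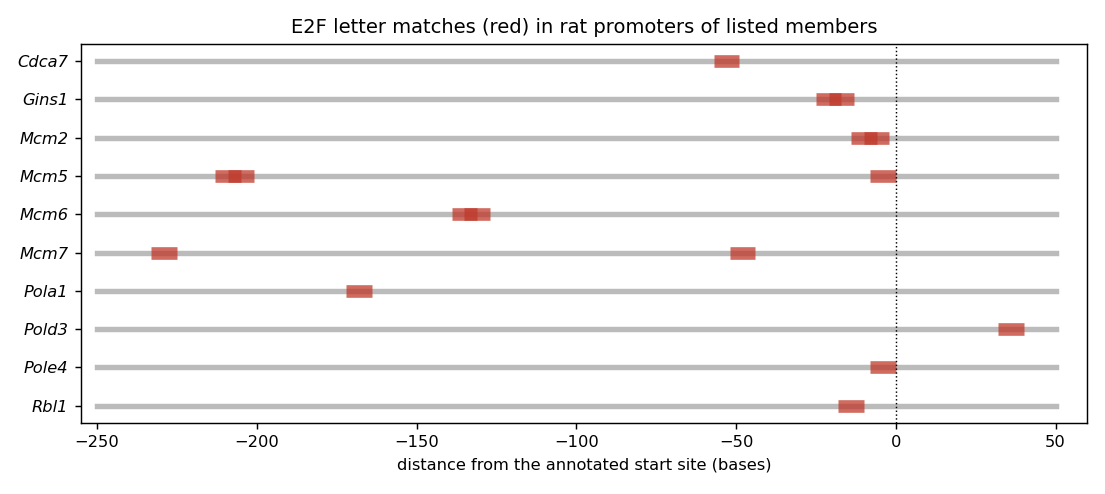
Position of E2F letter matches in the rat promoters of the 10 members that hold them. The horizontal axis is the distance in bases from the annotated start (dotted line), grey bars are the 300 bases searched, and red boxes are matches, darker where 2 overlap. In Mcm2 the matches begin 14 and 10 bases before the start, and in Mcm6 they begin 139 and 135 bases before it.

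Other promoter letters were read in the same windows. The CRE letters TGACGTCA stood in 4 of the 36 promoters (11.1%; 1.91% of all), those of Btg2, Kif17, Mcm5 and Trp53inp2. CCAAT on either strand stood in 19 of 36 (52.8%; 37.7% of all). TTTGAA, the CHR letters known from genes of G2 and mitosis, stood in 5 of 36 (13.9%; 18.1% of all).

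Polymerase subunits stayed inside the fold limit in the main limma fit. Pola1 and Pola2 encode the catalytic and the accessory subunit of DNA polymerase alpha, which lays down primers, and they went in opposite directions. Pola1 had 98.7, 109 and 79.4 in the Cal-headed libraries against 67.0, 58.5 and 46.0, while Pola2 had 255, 318 and 356 against 395, 507 and 460. Neither pair of groups overlapped, and the log2 fold changes were 0.74 ± 0.24 and -0.56 ± 0.18 (SE). Under quantile normalization the limma adjusted p was 0.0710 for Pola1 and 0.0699 for Pola2. Under median-ratio scaling it was 0.00476 for Pola1, whose log2 fold change was then 1.03, and 0.183 for Pola2. Without Cal-headed library 1 it was 0.0556 for Pola1 and 0.0686 for Pola2. Pold3, an accessory subunit of polymerase delta, was at -0.60 ± 0.18, and its limma adjusted p was 0.134 under median-ratio scaling. Thus 0 of the 3 listed polymerase members passed the fold limit in the main fit, while Pola1 passed it under median-ratio scaling.

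Rbl1 and Ccne1 were lower in the Cal-headed libraries. Rbl1 (ENSMUSG00000027641, mouse chromosome 2, 157145893 to 157204534), a brake on E2F targets that is itself known as an E2F target, had 70.1, 47.9 and 71.7 in the Cal-headed libraries and 268, 552 and 197 in the Model-headed libraries. All Model-headed libraries lay above all Cal-headed ones, with library 2 at 2.06 times its group's median. The log2 fold change was -2.29 ± 0.38 (SE; limma adjusted p = 0.00157), and it ranged from -2.61 to -1.87 when each library was left out. Ccne1, which encodes cyclin E1, the partner of CDK2 at S phase entry, had 24.0, 9.39 and 12.0 against 40.0, 31.7 and 51.8. Its log2 fold change was -1.46 ± 0.40 (SE; limma adjusted p = 0.00931).

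The CDK inhibitors split as well. Cdkn1c (ENSMUSG00000037664, mouse chromosome 7, 143458339 to 143461050) encodes p57, an imprinted inhibitor of G1 CDKs, and had 297, 251 and 292 in the Cal-headed libraries against 44.3, 58.5 and 69.0 in the Model-headed libraries. The lowest Cal-headed value was well above the highest Model-headed one, and the log2 fold change was 2.29 ± 0.22 (SE; limma adjusted p = 0.000250), a 4.88-fold difference on that scale. Cdkn2d, which encodes the CDK4 and CDK6 inhibitor p19, had 181, 187 and 172 against 243, 305 and 571. Model-headed library 3 stood apart, and the gene was not called (log2 fold change -0.95 ± 0.30), although edgeR and DESeq2 on the reads put it past the limit (-1.06 and -1.05). Cdkn1a and Cdkn1b are not listed in this table and were not analysed here for this comparison.

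Among checkpoint and p53-related members, Chek2 showed the largest gap. Chek2 (ENSMUSG00000029521, mouse chromosome 5, 110839979 to 110874145), a kinase activated by DNA double-strand breaks, had 47.0, 39.4 and 60.6 in the Cal-headed libraries and 6.48, 3.66 and 2.88 in the Model-headed libraries. The ranges were far apart, at a log2 fold change of 3.26 ± 0.36 (SE; limma adjusted p = 0.000376). The Model-headed values rest on few reads, so the size of this change depends on the pseudocount. With a pseudocount of 10 it was 2.03, still past the fold limit. Trp53inp1, a stress protein induced by p53, went the other way with 224, 302 and 225 against 608, 799 and 618. Its log2 fold change was -1.43 ± 0.19 (SE; limma adjusted p = 0.000656). Trp53i13, another gene named for induction by p53, was at 0.87 ± 0.26 and was not called. It was called under median-ratio scaling (1.17) and without Model-headed library 3 (1.14).

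Plk3, a polo-like kinase that responds to stress and is not needed for mitosis in the way of Plk1, was higher in the Cal-headed libraries. It had 548, 372 and 428 against 109, 129 and 85.3, without overlap, and the log2 fold change was 2.05 ± 0.22 (SE; limma adjusted p = 0.000355). Btg1, which encodes an antiproliferative protein of quiescent cells, had 700, 610 and 740 against 1316, 1427 and 1327. The replicates were tight in both groups, and at a log2 fold change of -0.99 ± 0.13 (SE; limma adjusted p = 0.000688) it lay just inside the fold limit and was not called. Leaving out Cal-headed library 3, for example, put it past the limit at -1.05.

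Of the 4 mitotic and centromere members, 3 were called higher in the Cal-headed libraries, and 2 of these, Cdc20 and Cdca3, rest on few reads. Cenpf, a kinetochore protein of G2 and mitosis, had 250, 209 and 172 against 109, 106 and 68.0. Each Cal-headed value exceeded each Model-headed one, at a log2 fold change of 1.16 ± 0.25 (SE; limma adjusted p = 0.00409), which was 0.94 and no longer called without Model-headed library 3. Cenpj, a centriole assembly protein, had 113, 88.2 and 88.0 against 207, 435 and 117. Its lowest Model-headed library came near the highest Cal-headed one, and the log2 fold change of -1.19 ± 0.44 (SE; limma adjusted p = 0.0290) became -0.69 with an adjusted p of 0.0605 without Model-headed library 2. Its adjusted p also passed 0.05 without Cal-headed library 2 (0.0700), Cal-headed library 3 (0.0694) or Model-headed library 1 (0.0642), and the call was lost under median-ratio scaling (-0.89).

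Both members with few reads are given because every member is accounted for, and neither was called with a pseudocount of 10. Cdc20, an activator of the anaphase-promoting complex, had 13.8, 14.1 and 20.5 against 5.40, 2.44 and 3.83 (log2 fold change 1.83 ± 0.39). Cdca3, a mitotic entry factor, had 6, 8 and 10 reads in the Cal-headed libraries and 0, 0 and 1 in the Model-headed libraries. After scaling, its ratio was 20.2 with a 95% exact interval of 3.29 to 829, which covers counting error only.

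Kinesins made up 7 of the 28 members, of which 3 were called higher and 1, the sparse Kif17, lower in the Cal-headed libraries. Kif26a (ENSMUSG00000021294, mouse chromosome 12, 112146208 to 112181747), a kinesin relative that lacks motor ATPase activity, had 275, 206 and 208 in the Cal-headed libraries and 16.2, 15.9 and 14.4 in the Model-headed libraries. Its log2 fold change was 3.79 ± 0.22 (SE; limma adjusted p = 8.27e-05), or 13.9-fold on the log2(normalized count + 1) scale. Kif1b, a motor for mitochondria and synaptic vesicle precursors, had 3718, 3295 and 3144 against 1630, 1533 and 1256. Its log2 fold change was 1.21 ± 0.15 (SE; limma adjusted p = 0.000563). These members are named for a protein family, and neither is a mitotic spindle motor.

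Kif6 had 50.7, 30.0 and 30.7 against 15.1, 14.6 and 16.3 and was called higher, with a log2 fold change of 1.18 ± 0.30, which was 0.94 and no longer called without Cal-headed library 1 and 0.87 with a pseudocount of 10. Kif3c (0.82 ± 0.26), a subunit of a transport motor, Kif13a (0.51 ± 0.14), a membrane cargo motor, and Kif26b (-0.77 ± 0.25) were not called. Kif3c was called under median-ratio scaling (1.11) and without Model-headed library 1 (1.003), and Kif13a under quantile normalization (1.02). Kif17, a motor of cilia and dendrites, had 1, 0 and 1 reads in the Cal-headed libraries and 1, 10 and 12 in the Model-headed libraries. Its ratio was 13.7 towards the Model-headed libraries with a 95% exact interval of 3.38 to 120, while Model-headed library 1 was as low as the Cal-headed libraries. The limma adjusted p was 0.0258, and it passed 0.05 under quantile normalization (0.141) and without Cal-headed library 2 (0.0724), Model-headed library 2 (0.0831) or Model-headed library 3 (0.0962).

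Genes of the same pathways outside the symbol rule were counted from fixed lists, and the largest called changes among genes whose higher group averaged 50 or more are named. Of 37 S phase factors 5 are listed, with 2 called higher and 3 lower in the Cal-headed libraries. Timeless, which steadies the replication fork, was at a log2 fold change of -2.48, Rpa3, a subunit of the single-strand binding complex, at 1.34, and Usp1, a deubiquitinase that acts on Pcna, at -1.22, while Brca1 (2.56) and Fen1 (-1.65) were called at lower means. Of 58 mitosis factors 4 are listed, with 1 called higher and 0 lower. Of 30 factors of G1 entry and the DREAM complex 8 are listed, with 2 called higher and 2 lower, among them Mybl2, an E2F target of proliferating cells (-3.70), Fbxw7, which targets cyclin E for degradation (1.71), and Mycn (1.70). Of 26 genes on the p53 target list 9 are listed, with 3 called higher and 4 lower, among them the death receptor Fas (-2.22), Apaf1 of the apoptosome (-1.54) and Gadd45a (-1.43). The 3 called higher, named after their values were seen, were Gdf15 (1.90, at a lower mean), Tigar (1.36) and Tnfrsf10b (1.34). The medians were -1.22, 0.97, -0.64 and -0.46, against -0.52 over all listed genes.

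Markers of other cell types moved with these groups. For neutrophils 8 of 10 markers are listed, and 8 were lower in the Cal-headed libraries, with summed normalized counts of 208 to 567 against 25721 to 29131, most of it Lcn2, and Mpo without a read in any Cal-headed library. For endothelial cells 8 of 10 are listed and 8 were higher, at 12512 to 14885 against 5063 to 6770. For macrophages 7 of 10 are listed, 6 higher and 1 lower, at 4899 to 5840 against 1851 to 2727. Fibroblast markers (5 of 10 listed, 4 higher and 1 lower) overlapped in their sums, at 19172 to 23291 against 17132 to 24097. The 1 lower was the abundant Dcn (mean 8610 against 13976), while the 4 higher did not overlap between the groups. Smooth muscle and pericyte markers (2 of 8 listed, 2 higher) summed to 3194 to 3440 against 2079 to 2306. T cell markers (2 of 10 listed, 2 lower) summed to 5.53 to 12.0 against 48.6 to 179 and the single B cell marker of 6 to 2.82 to 11.1 against 17.3 to 57.3. No cardiomyocyte marker of 10 and no erythroid marker of 7 is listed. The part of these cell types in the members' differences was not tested.

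The second comparison sets the Cal-headed against the Con-headed libraries, in the table named for the model and sham groups. Of the 23 members listed, 11 were higher and 12 lower in the Cal-headed libraries. The 3 called higher were Cdkn1a, Plk3 and Btg2, each known to restrain the cycle or respond to stress, and the 5 called lower were Cdca7, Cdc25b, Mcm6, Chek2 and Kif26a. The last 3 lay near the fold limit and lost the call when some libraries were left out. Over all listed genes, 18.0% were called higher and 10.9% lower. The groups did not overlap in 22 of 23 members, against 97.4% of all listed genes. The median log2 fold change was -0.37 over the members and 0.37 over all listed genes. By count, 11 of 23 members and 60.7% of all listed genes were higher, so both sets were mixed in direction here too. The balance over all listed genes turned with the scaling, from 443 called higher and 269 lower to 348 and 387 under quantile normalization (median -0.04) and to 342 and 447 under median-ratio scaling (median 0.09), while the members called were 3 higher and 6 lower under each. By the mean columns, these would be directions of the model group relative to the sham group.

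**Figure D3:**
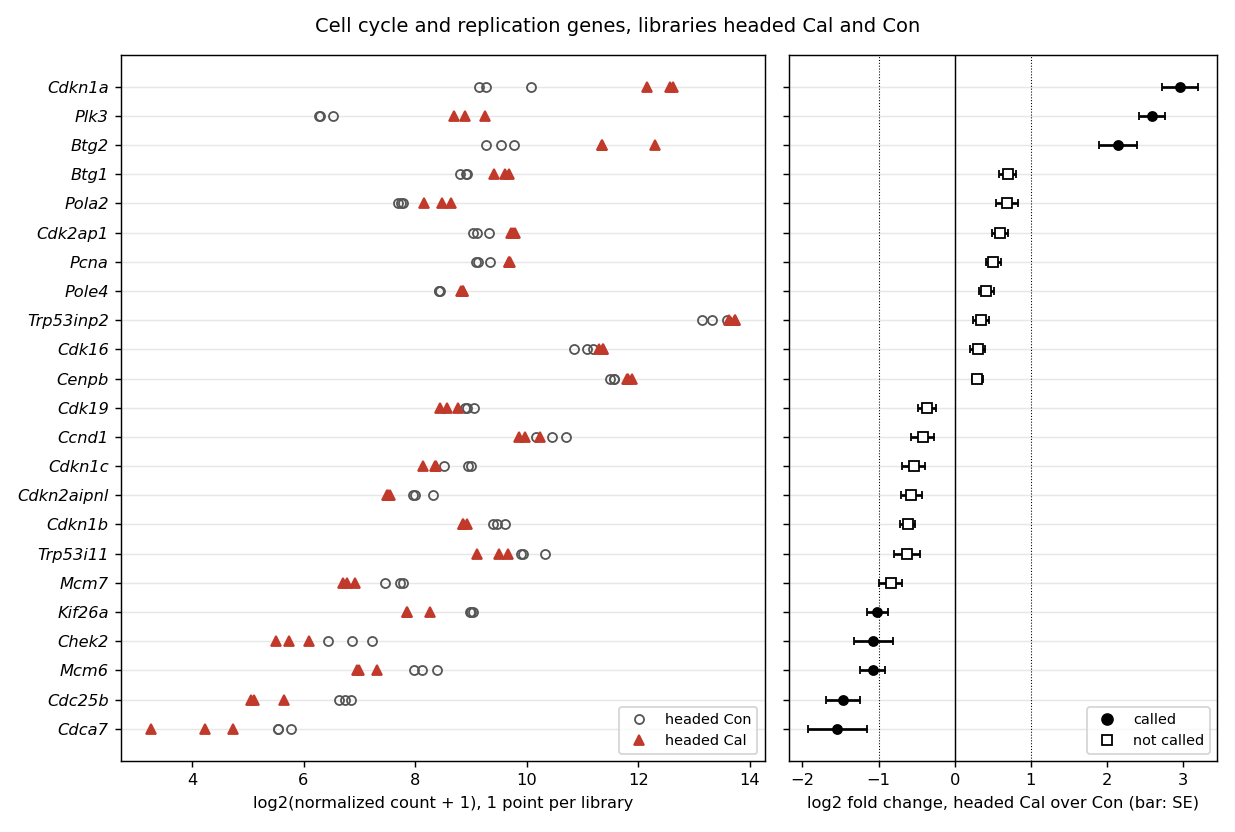
Members listed in the model and sham table, sorted by log2 fold change. The left panel gives log2(normalized count + 1) for each library (open circles Con-headed, triangles Cal-headed), and the right panel gives the log2 fold change of Cal-headed over Con-headed libraries with its standard error (filled circles called, open squares not called, dotted lines at 1 and -1). Cdkn1a, Plk3 and Btg2 stand apart at 2.96, 2.59 and 2.14, and the other 20 lie between -1.54 and 0.69.

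Cdkn1a had the largest difference of the members in this table. The gene (ENSMUSG00000023067, mouse chromosome 17, 29090976 to 29100727) encodes p21, the CDK inhibitor induced by p53, and had 4583, 6111 and 6317 in the Cal-headed libraries and 616, 1076 and 568 in the Con-headed libraries. The lowest Cal-headed library was far above the highest Con-headed one, and the log2 fold change was 2.96 ± 0.24 (SE; limma adjusted p = 2.43e-05), or 7.77-fold on that scale. The other listed inhibitors were lower instead. Cdkn1b, which encodes p27, had 487, 463 and 463 against 677, 706 and 785 (log2 fold change -0.62 ± 0.10), and Cdkn1c had 332, 281 and 326 against 368, 495 and 512 (-0.54 ± 0.15). Neither was called, and neither overlapped.

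Per kilobase of gene length, the mean level of Cdkn1a in the Con-headed libraries was 212 normalized counts, that of Cdkn1c 225 and that of Cdkn1b 159. In the Cal-headed libraries the same levels were 1596, 153 and 103. By this measure Cdkn1a stood beside the other 2 inhibitors in the Con-headed libraries and well above them in the Cal-headed ones. The deposited lengths belong to mouse identifiers here too, so levels of different genes compare only roughly.

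Of the 3 antiproliferative and stress-induced members, 2 were called higher in the Cal-headed libraries. Plk3 had 613, 417 and 477 against 91.3, 77.6 and 76.9, with a log2 fold change of 2.59 ± 0.17 (SE; limma adjusted p = 9.46e-06). Btg2, an antiproliferative gene known to be induced by p53, had 5034, 2618 and 2604 against 615, 872 and 741. Cal-headed library 1 held nearly all of the spread, and the log2 fold change was 2.14 ± 0.25 (SE; limma adjusted p = 0.000239) and 1.83 without that library. Btg1 had 783, 684 and 825 against 482, 486 and 444 (0.69 ± 0.11), below the fold limit. The Btg2 promoter is shown because it holds the CRE letters TGACGTCA, here in capitals, which 1.91% of rat promoters of this length hold.
Btg2 (chr13:48087641-48087940, minus strand): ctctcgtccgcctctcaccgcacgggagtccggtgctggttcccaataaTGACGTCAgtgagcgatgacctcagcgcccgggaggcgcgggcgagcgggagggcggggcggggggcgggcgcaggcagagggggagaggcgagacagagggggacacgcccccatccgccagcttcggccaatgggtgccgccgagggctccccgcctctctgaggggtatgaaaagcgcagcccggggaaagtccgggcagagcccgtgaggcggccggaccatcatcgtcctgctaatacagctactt

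The listed helicase members, Mcm6 and Mcm7, were lower in the Cal-headed than in the Con-headed libraries, while Mcm2, Mcm5 and Gins1 are not listed in this table. Mcm6 had 158, 126 and 124 against 252, 335 and 277 without overlap, at a log2 fold change of -1.08 ± 0.16 (SE; limma adjusted p = 0.000877), which was -0.96 and inside the fold limit without Con-headed library 2. Mcm7 had 109, 104 and 121 against 174, 219 and 211 and was not called (-0.84 ± 0.15). The polymerase and clamp members were all slightly higher, and none was called. Pcna, the sliding clamp of replication and repair, had 824, 837 and 822 against 560, 646 and 545 (0.51 ± 0.10), although genomes hold processed copies of Pcna with which reads could be shared. Pola2 was at 0.69 ± 0.15 and Pole4, a histone-fold subunit of polymerase epsilon, at 0.41 ± 0.10. Pcna and Pole4 lay near the median of all listed genes in this comparison, 0.37. That median moved by -0.28 under median-ratio scaling and by -0.42 under quantile normalization, so such small rises depend on the scaling.

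Cdc25b, the phosphatase that activates CDKs ahead of mitosis, had 49.5, 33.7 and 32.4 in the Cal-headed libraries and 98.8, 115 and 106 in the Con-headed ones. The log2 fold change was -1.47 ± 0.22 (SE; limma adjusted p = 0.000804). Cdca7, which helps a chromatin remodeller maintain DNA methylation, had 25.8, 17.9 and 8.57 against 45.7, 54.0 and 45.5. Its mean in the higher group was under 50, and the log2 fold change was -1.54 ± 0.38 (SE; limma adjusted p = 0.00611). Ccnd1, which encodes cyclin D1, was the single member with overlapping groups, at 930, 1205 and 999 against 1662, 1398 and 1151, with a log2 fold change of -0.42 ± 0.15 and a two-sided exact permutation p of 0.2.

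Checkpoint member Chek2 had 52.6, 44.2 and 67.6 against 85.7, 116 and 150, at a log2 fold change of -1.07 ± 0.26 (SE; limma adjusted p = 0.00540). The change fell inside the fold limit without Cal-headed library 2 (-0.93) or Con-headed library 3 (-0.87) and with a pseudocount of 10 (-0.96). Kif26a had 307, 230 and 231 against 511, 527 and 506, at -1.02 ± 0.14 (SE; limma adjusted p = 0.000481). Both groups of Kif26a were tight apart from Cal-headed library 1, and the call was lost without Cal-headed library 2 (-0.95), Cal-headed library 3 (-0.95) or Con-headed library 2 (-0.998) and with a pseudocount of 10 (-0.99). The smaller differences were those of Trp53i11 (-0.62 ± 0.17), Cdkn2aipnl (-0.57 ± 0.14), the Mediator kinase Cdk19 (-0.37 ± 0.12), the CDK2-associated Cdk2ap1 (0.60 ± 0.10), Trp53inp2 of autophagy (0.34 ± 0.11), Cdk16 (0.30 ± 0.10) and the centromere DNA-binding protein Cenpb (0.30 ± 0.07). The last 3 changed sign under quantile normalization, which moved the median of all listed genes by -0.42.

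Outside the symbol rule, 4 of 37 S phase factors are listed, with 0 called higher and 1 lower, and 3 of 58 mitosis factors, with 0 higher and 1 lower. Of the G1 and DREAM factors 4 of 30 are listed, 2 called higher and 1 lower. Of the p53 target list 9 of 26 genes are listed, 4 called higher and 0 lower. Myc, which drives growth and cell cycle entry, had 575, 695 and 660 in the Cal-headed libraries against 68.0, 55.0 and 57.7, at a log2 fold change of 3.40, and Ccnl1, a cyclin of splicing kinases, was at 1.01, while the 1 called lower was Skp2 (-2.48, at a lower mean), which targets p27 for degradation. On the p53 target list the growth arrest genes Gadd45b and Gadd45g were at 4.27 and 2.42, and the death receptor gene Tnfrsf10b at 1.87. Of these 9 genes 8 were higher, against 60.7% of all listed genes, and 1, Phlda3 (-0.96, not called), was lower. Whether p53 drove any of them was not tested. The list medians were -0.73, -0.75, 0.83 and 0.72, against 0.37 over all listed genes.

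Cell type markers differed here too. Endothelial markers (8 of 10 listed, 1 higher and 7 lower) summed to 17307 to 19823 in the Cal-headed libraries and 25830 to 29628 in the Con-headed ones, and fibroblast markers (4 of 10, 4 lower) to 9550 to 12371 against 14389 to 16008. Smooth muscle and pericyte markers (5 of 8, 5 lower) summed to 14136 to 15865 against 19623 to 23121. Neutrophil markers (3 of 10, 3 higher) summed to 194 to 580 against 59.6 to 88.1, macrophage markers (2 of 10, 1 higher and 1 lower) to 2001 to 2755 against 1094 to 1210, and erythroid markers (4 of 7, 4 higher) to 11104 to 14863 against 6643 to 10394. The higher macrophage sum came from Cd14 (mean 1612 against 146), while Mrc1 was lower (703 against 988). The heart label could be checked on Myh6 and Ryr2, the 2 cardiomyocyte markers listed of 10, and both were abundant, with sums of 360759 to 362832 against 267192 to 338084. No T cell or B cell marker is listed, and the part of these cell types in the members' differences was not tested.

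The 8 members listed in both tables can be placed across all 9 libraries, with the Con-headed values put on the scale of the other table through the shared Cal-headed libraries. These levels are a description, since the tables were normalized separately and selected the genes. In 3 members the order was Model-headed, Cal-headed, Con-headed from low to high. Kif26a had means of 15.5 ± 0.97, 229 ± 39 and 460 ± 10 (SD, n = 3), Cdkn1c 57.3 ± 12, 280 ± 25 and 410 ± 70, and Chek2 4.34 ± 1.9, 49.0 ± 11 and 105 ± 29. In each of the 3, no library of a group overlapped a library of its neighbour. That was the usual case, since the Cal-headed group did not overlap the other group in 98.2% and 97.4% of all listed genes. How often each order occurs over the 986 shared genes was not counted.

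The reverse order, Con-headed lowest and Model-headed highest, was seen in 2 members. Btg1 had means of 421 ± 21, 683 ± 66 and 1357 ± 61 in the Con-headed, Cal-headed and Model-headed libraries, and Pola2 of 190 ± 5.7, 310 ± 51 and 454 ± 56 (SD, n = 3). In the other 3 members the Cal-headed libraries were at an end of the order. Plk3 was highest there, at 449 ± 90, against 108 ± 22 in the Model-headed and 73.3 ± 7.3 in the Con-headed libraries. Mcm6 and Mcm7 were lowest there, at 122 ± 17 and 99.7 ± 7.9. Their Model-headed and Con-headed libraries overlapped, at 406 ± 183 and 258 ± 38 for Mcm6 and at 158 ± 27 and 180 ± 21 for Mcm7, so that no difference between these groups exceeded the spread.

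**Figure D4:**
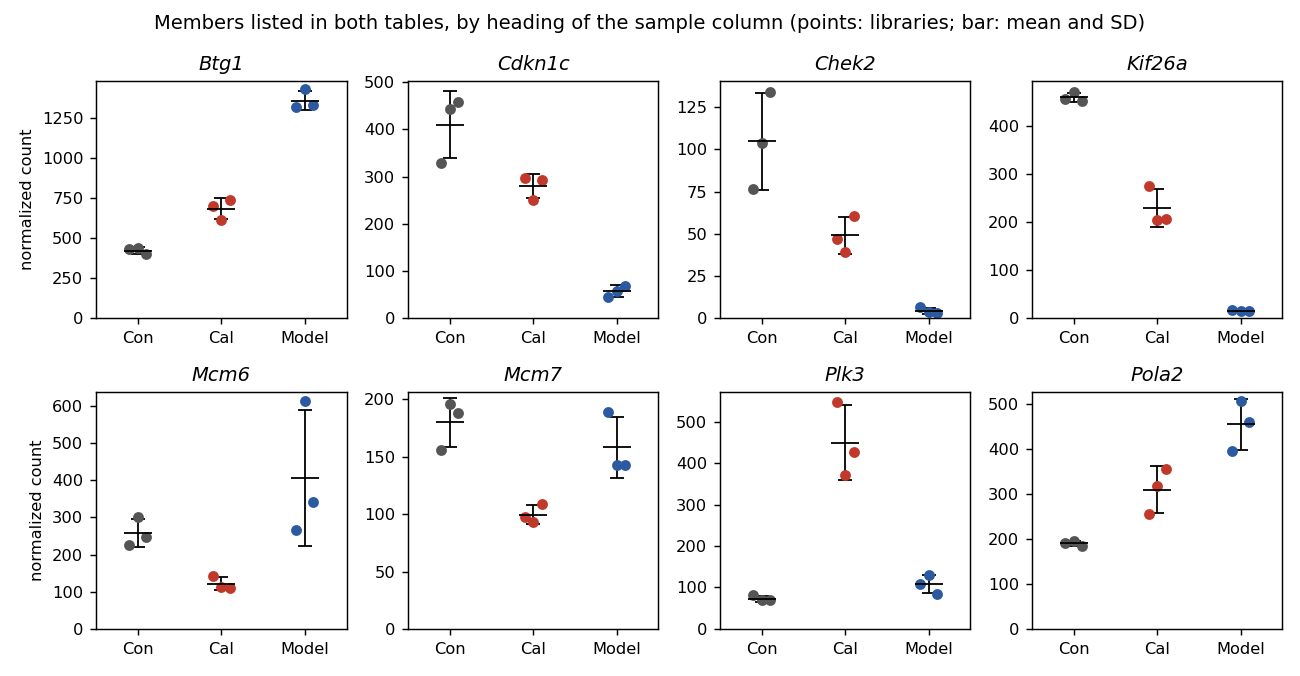
Normalized counts of the 8 members listed in both tables, by heading of the sample column, on the scale of the Cal and model table. Points are libraries, horizontal lines with bars are the mean and SD of 3 libraries, and each vertical axis starts at 0. Kif26a, Cdkn1c and Chek2 are lowest in the Model-headed libraries, Btg1 and Pola2 are highest there, and the Cal-headed libraries are highest for Plk3 and lowest for Mcm6 and Mcm7.

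Set side by side by role, the members did not follow a single direction in either comparison. Of the 5 helicase members in the Cal and model table, 2 were called higher, Mcm2 only at the limit, and 2 lower, and in the other comparison 0 of the 2 were called higher and 1 lower. Mitotic and centromere members had a median log2 fold change of 1.50 in the first comparison (4 members). Of these, Cdc20 and Cdca3 rest on few reads, and Cenpj was lower. In the second comparison the 2 members were Cdca7 (-1.54) and Cenpb (0.30), neither of them listed in the first. Their median of -0.62 lies between opposite signs, so it cannot be set against that of the first comparison. The 2 antiproliferative and stress-induced members of the first table, Plk3 and Btg1, had opposite signs, and the 3 of the second, Plk3, Btg2 and Btg1, were all higher in the Cal-headed libraries. The comparisons share the Cal-headed libraries, so their values are not independent of each other.

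**Figure D5:**
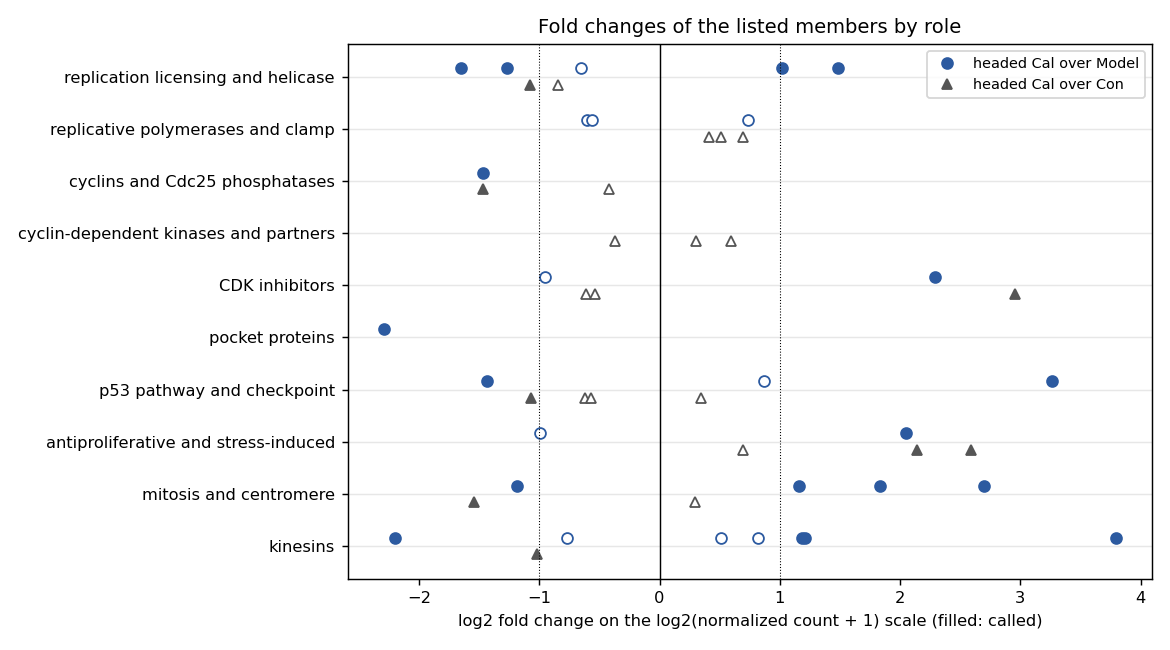
Log2 fold change of each listed member on the log2(normalized count + 1) scale, grouped by role on the vertical axis. Circles are Cal-headed over Model-headed libraries, triangles are Cal-headed over Con-headed libraries, filled symbols are called members, and dotted lines mark 1 and -1. Helicase members lie on both sides of 0 in the first comparison (-1.65 to 1.48) and below 0 in the second (-1.08 and -0.84).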

How the data were processed

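Poly-A RNA of 9 hearts was sequenced by the authors, 3 per group, and reads were counted per gene. The deposited signal is a normalized count, reads per gene over 1 size factor per library, which the authors set anew in each of 2 tables and tested with DESeq2. Size factors ranged from 0.820 to 1.17, and whole reads were recovered for 100% of values (tolerance 0.01 reads). The study's methods name rat reference sequences, the submitters' processing notes name Bowtie 0.12.2 with mm8 and mm9, and the tables use mouse Ensembl identifiers. The build of the coordinates and the strand setting of the counting are not given in the sources used here. Deposited mean columns served only to check the headings, and the deposited fold changes, p-values and adjusted p-values of the authors' own tests were not used. Sample columns of other series numbered 0.

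Libraries were grouped by sample heading. The planned design assumed normalized values, so limma 3.58.1 (R 4.3.3, trended prior variance) was run on log2(normalized count + 1) within each table, with Benjamini-Hochberg adjustment over its listed genes. Fold changes on this scale understate those of low genes. A gene was called at an adjusted p below 0.05 with a log2 change past 1 in size. Single genes were compared with exact permutation tests (scipy 1.17.1). Members, gene lists and markers were chosen with earlier results of these data known. Members named in full were those in both tables, the 8 largest called changes per table and direction whose higher group averaged 50 or more without overlap, and a list of core cell cycle genes, and the others were added so that every member is accounted for. In the lists, the 3 largest called changes with such a mean were named. Scripts were tested on simulated data. Other settings were a pseudocount of 0.1 or 10, leaving out genes averaging under 10, median-ratio scaling, quantile normalization, edgeR 4.0.16 and DESeq2 1.42.0 on recovered reads, a replicate block, no fold limit, a stricter adjusted p of 0.01, and leaving out each library. The edgeR test called 2593 and DESeq2 2596 of 4288 genes, where limma called 2575. In the other table they called 716 and 717 of 2458, where limma called 712.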

Additional observations from a re-analysis of the deposited data

How the results depend on the processing

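Members called in the Cal and model table numbered 18 (11 higher and 7 lower in the Cal-headed libraries), and in the other comparison 8 (3 and 5). Without a fold limit they were 28 (15 higher and 13 lower) and 23 (11 and 12), since every listed member passed the adjusted p. With a pseudocount of 10, 7 higher and 5 lower were called in the first table, and 3 and 3 in the second, where genes of low abundance move towards 0 by construction. At an adjusted p under 0.01, 4 were called lower in the first table. When each library was left out in turn, the first table gave 15 to 19 calls (9 to 11 higher, 5 to 8 lower) and the second 6 to 8 (3 to 3 higher, 3 to 5 lower). The 3 lower calls came without Cal-headed library 2 and without Con-headed library 2.

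Median-ratio scaling and quantile normalization moved the median log2 fold change of all listed genes by 0.30 and 0.42 in the first table and by -0.28 and -0.42 in the second. Under quantile normalization Cdk16 (-0.17), Cenpb (-0.18) and Trp53inp2 (-0.078) turned lower in the Cal-headed libraries, and the cause was not tested. The adjusted p passed 0.05 for 4 and 6 members of the first table under quantile normalization and median-ratio scaling, and for 3 and 5 members of the second, besides those that turned. With a library left out it did so in 18 member values of the first table, against 150 where it did not, and in 5 against 133 in the second. On recovered reads edgeR and DESeq2 each called 10 higher and 8 lower, and 3 and 5. With the replicate number as a block the calls were 18 and 8, and over all listed genes 2574 and 713, so the block changed no member's call. Replicate numbers of different groups belong to different animals, and same-numbered libraries did not deviate together. For numbers 1 to 3 the correlation of their deviations from the group means was 0.11, -0.12 and -0.081 in the first table and -0.023, -0.12 and -0.14 in the second, and not every library correlated best with its own number.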
